A study of Rattus norvegicus with 6 samples.

Results

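The isozymes that control the entry of glucose into glycolysis were described in the rat embryonic heart primordium before and after heartbeat initiation. They are the hexokinases Hk1, Hk2 and Hk3, the phosphofructokinases Pfkm, Pfkl and Pfkp, and the bifunctional enzymes Pfkfb1, Pfkfb2, Pfkfb3 and Pfkfb4. All array probes other than controls whose gene name was one of these 10 symbols were taken, which gave 14 of 30367 probes, and 10 of 19297 gene symbols on the array. Of these 14, 10 probes of 8 genes were bright enough to be tested, and the probes of Hk3 and Pfkfb2 were not. The rule takes genes by symbol and sets no threshold on a value.

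Hexokinase phosphorylates glucose as it enters the cell, and Hk1 and Hk2 can bind to the outer mitochondrial membrane. Phosphofructokinase commits the sugar to glycolysis, and its muscle (Pfkm), liver (Pfkl) and platelet (Pfkp) subunits assemble into tetramers whose regulation depends on the mixture of subunits. The PFKFB enzymes make and break down fructose 2,6-bisphosphate, an activator of phosphofructokinase, with a balance of both activities that differs between isozymes. Genes of all 3 families are known targets of the hypoxia-inducible factor, the transcription factor that the study examined in this tissue. In the heart, Pfkm and Hk2 are the main isozymes of adult muscle, while Hk1 is prominent in the fetal heart.

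The heart primordia were from Wistar rat embryos (spelled Wister in the labels) on embryonic day 10, and the labels give no genetic change or treatment for either group. Primordia with a flat center made up the pre-heartbeat group and those with a raised center the post-heartbeat group. The study's definition also gives overlapping ranges of somite number, with the higher range in the post-heartbeat group. Stage was thus assigned from shape and somite number. Each group had 3 biological replicates with 1 array of total RNA each, and the number of primordia behind a sample was not stated. Slide 1 held the arrays of replicate 1 before and of replicates 1 and 2 after heartbeat initiation, and slide 2 the arrays of replicates 2 and 3 before and of replicate 3 after it. Each signal is the log2 value of a probe less that of the array's 75th percentile, which lay between 1145.76 and 1701.98 intensity units, and 0 spots were saturated. Arrays correlated with each other at a Pearson r between 0.975 and 0.996 over the tested probes, and precision is limited by having 6 arrays. Pairs on the same slide correlated at 0.9895 to 0.9962 and pairs on different slides at 0.9745 to 0.9886, whichever groups they joined. The arrays thus resembled each other more by slide than by group. Each slide held both groups, so each main difference has a second value from a fit that takes the slide as a block, and values within each slide, which rest on 3 arrays. Values of a group are listed in the order of its replicates. In dissected tissue, a change in the share of a cell type and a change in the RNA of each cell cannot be told apart.

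The probe sequences decide which transcript is counted, so those of the genes on which the comparisons turn are shown, 5′ to 3′. Positions are those of the rn4 genome in the array annotation, which places no exon or UTR and gives no position for Hk1. All probes were 60 bases long, and for Hk1, Pfkm and Pfkp a stretch of 30 bases is printed. The Pfkm probe lies on chromosome 7 from 136845936 to 136845995 and the Pfkp probe on chromosome 17 from 74822977 to 74823036, both on the plus strand.
Hk1 probe, bases 1 to 30: aaacaacaccatcactggaatttccatcgc
Pfkm probe, bases 1 to 30: aaagtgagctttatttatttctttgtgata
Pfkp probe, bases 1 to 30: actgtaccgggtactactgtcttgtgcttt
The probes of Pfkfb4 (chromosome 8, plus strand, 114045262 to 114045321) and Pfkfb2 (chromosome 13, minus strand, 43636675 to 43636734) resemble each other over part of their length. In the next pair, capitals mark the bases that match between them when the end of the Pfkfb4 probe is laid over the start of the Pfkfb2 probe.
Pfkfb4 probe: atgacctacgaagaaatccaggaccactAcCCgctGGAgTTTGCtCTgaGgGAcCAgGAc
Pfkfb2 probe: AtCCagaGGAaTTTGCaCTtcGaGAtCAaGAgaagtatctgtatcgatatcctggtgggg
Over an overlap of 32 bases, 20 matched (62.5%), the highest share among pairs of these probes laid over each other without gaps by at least 30 bases, and no probe was the same as that of another isozyme.

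Of the 10 tested probes, 0 differed between the groups at a limma adjusted p under 0.05, where the post-heartbeat group was higher for 0.119% and lower for 0.0207% of all 19299 tested probes. At an unadjusted limma p under 0.05, 3 of the 10 were higher and 0 were lower, against 3.91% and 3.1% of all tested probes. These 3 were the probes of Hk1, Pfkp and Pfkfb4, 1 in each family. The selection used in the study's methods, which asks for at least 1.5 fold and p under 0.05 without adjustment in Tukey's test, held the same 3 probes, against 1.89% of all tested probes as higher and 1.15% as lower. After Benjamini-Hochberg adjustment, the methods' test called 0 member probes. The post-heartbeat arrays all lay above the pre-heartbeat arrays for the same 3 of 10 probes, and this held for 5.38% of all tested probes (6.14% in the lower direction). When slide was a block, 1 of the 10 passed a limma adjusted p under 0.05, Pfkfb4, where 1.16% of all tested probes were higher and 0.461% were lower. All 10 probes were well above background on all 6 arrays, so the filter on dim probes did not favor either group. Over all tested probes the median log2 difference was -0.033.

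Markers of heart muscle had higher means along with Hk1, Pfkp and Pfkfb4, and some of the markers overlapped between the groups. All 8 cardiac muscle markers were well above background on all 6 arrays, as the label of the tissue implies, and had a higher mean after heartbeat initiation (median log2 difference 0.70). Of the 8, 0 passed the limma threshold and 4, Tnni1, Myl4, Myh6 and Myh7, were in the methods' selection. With the slide as a block, 3 passed limma. Over 12685 tested genes with a symbol, 20 were higher at the limma threshold, 295 in the selection and 188 with the block. The groups did not overlap for 5 of the 8 markers, against 800 of the 12685 genes as higher, and overlapped for the rest. The log2 of the summed signal of the 8 markers was 8.52 to 9.28 before heartbeat initiation and 9.41 to 9.67 after it, with no overlap. The part of muscle cells in the higher signals of the isozymes was not tested.

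**Figure D1:**
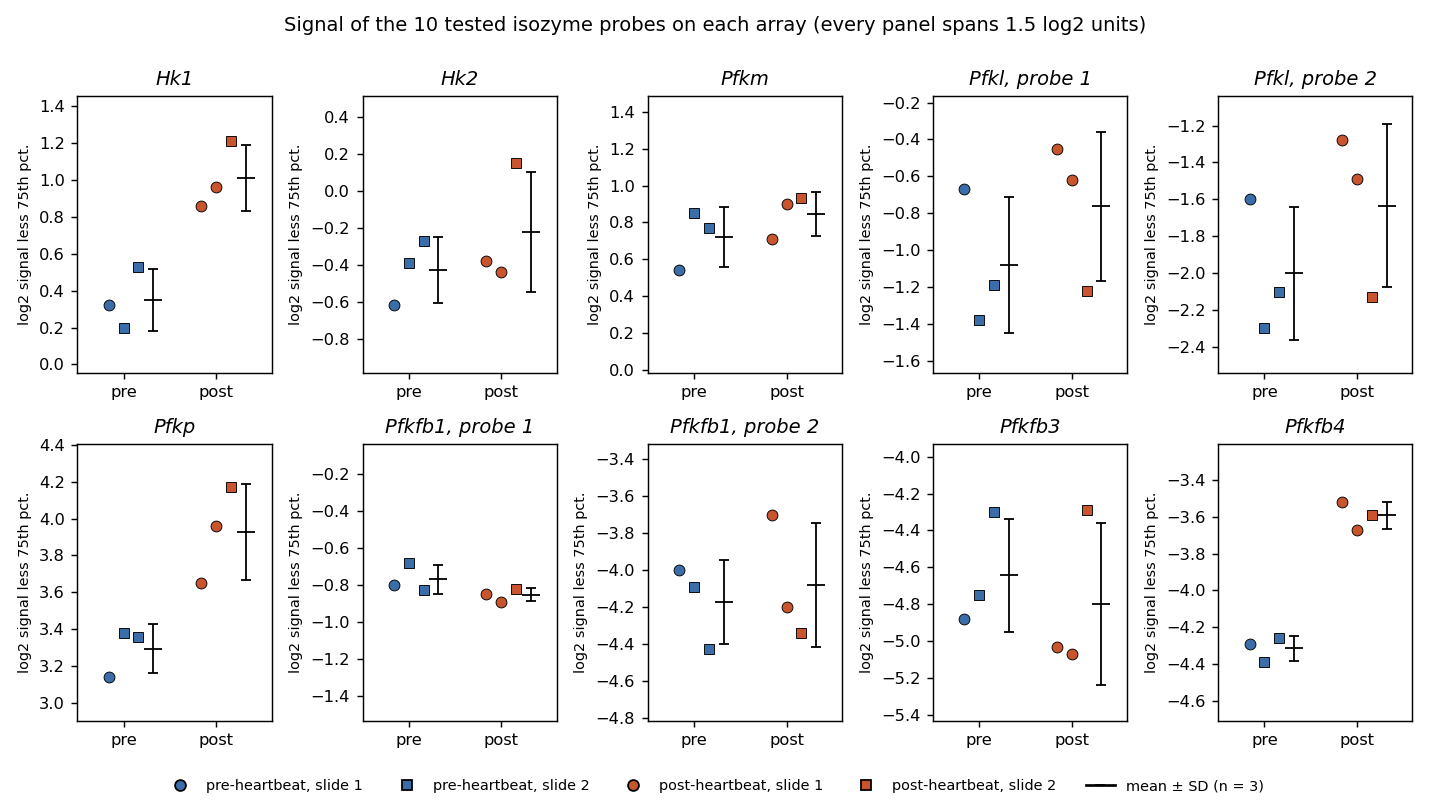
Signal of the 10 tested isozyme probes on each array, as log2 signal less the 75th percentile of the array (y axis), for the pre- and post-heartbeat groups (x axis). Circles are arrays of slide 1, squares are arrays of slide 2, and bars are mean ± SD (n = 3). The groups do not overlap for Hk1, Pfkp and Pfkfb4, and both Pfkl probes separate by slide rather than by group.

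Among the hexokinases, Hk1 was higher after heartbeat initiation and Hk2 was not separated from its spread. Hk1 is the isozyme found in most tissues. Its signal was 0.32, 0.20 and 0.53 before heartbeat initiation and 0.86, 0.96 and 1.21 after it. The lowest post-heartbeat array was thus above the highest pre-heartbeat array. The means were 0.35 ± 0.17 and 1.01 ± 0.18 (SD, n = 3), a log2 difference of 0.66 (SE 0.16, 95% interval 0.27 to 1.04), or 1.58 fold (limma unadjusted p = 0.00492, adjusted p = 0.266). The two-sided exact permutation p was 0.1, the smallest that 3 arrays per group can give. Within slides the log2 difference of Hk1 was 0.59 on slide 1 and 0.84 on slide 2, and with the slide as a block it was 0.72 (SE 0.15, limma adjusted p = 0.0761). The 2 spots of the Hk1 probe differed by at most 0.088 on any array, well under the difference between the groups.

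Hk2 is the insulin-responsive isozyme of muscle and fat. Its signal was -0.62, -0.39 and -0.27 before heartbeat initiation and -0.38, -0.44 and 0.15 after it. The groups overlapped, and only post-heartbeat replicate 3 lay above all pre-heartbeat arrays. The log2 difference was 0.20 (SE 0.20, 95% interval -0.28 to 0.68, limma adjusted p = 0.866), and without post-heartbeat replicate 3 it was 0.016. Within slides it was 0.21 and 0.48, and with the slide as a block 0.35 (SE 0.14, limma unadjusted p = 0.0366, adjusted p = 0.446). Hk3, the hexokinase best known from blood cells, was not well above background on any of the 6 arrays, where its signal was between -8.39 and -7.62, so no fold is given. Its probe lies on the plus strand of chromosome 17 from 15668934 to 15668993.

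Among the phosphofructokinase subunits, Pfkp was higher after heartbeat initiation, and the differences of Pfkm and Pfkl were within their spread. Pfkp had signals of 3.14, 3.38 and 3.36 before heartbeat initiation and 3.65, 3.96 and 4.17 after it. The groups did not overlap, and post-heartbeat replicate 3 was the highest array. The means were 3.29 ± 0.13 and 3.93 ± 0.26 (SD, n = 3), a log2 difference of 0.63 (SE 0.18, 95% interval 0.22 to 1.05), or 1.55 fold (limma unadjusted p = 0.00897, adjusted p = 0.347, exact permutation p = 0.1). The log2 difference of Pfkp was 0.66 on slide 1, 0.80 on slide 2 and 0.73 with the slide as a block (SE 0.15, limma adjusted p = 0.0576). Without post-heartbeat replicate 3 the differences of Pfkp (0.51) and Hk1 (0.56) were under the 1.5 fold of the methods' selection, which then held 1 member probe, that of Pfkfb4.

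Pfkm, the subunit of adult muscle, had signals of 0.54, 0.85 and 0.77 before and 0.71, 0.90 and 0.93 after heartbeat initiation. The groups overlapped, with a log2 difference of 0.13 (SE 0.15, 95% interval -0.22 to 0.48, limma adjusted p = 0.866), and 0.19 with the slide as a block (limma adjusted p = 0.860).

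Pfkl, the liver-type subunit, was measured by 2 probes on the plus strand of chromosome 20, from 11032281 to 11032340 and from 11032161 to 11032220. The first gave -0.67, -1.38 and -1.19 before heartbeat initiation and -0.45, -0.62 and -1.22 after it. The second gave -1.60, -2.30 and -2.10 before and -1.28, -1.49 and -2.13 after. Both probes moved together, as the second was lower than the first by 0.83 to 0.93 on every array. In both, the 3 arrays of slide 1 lay above the 3 arrays of slide 2, whichever group they belonged to. In the fit with group and slide, slide 2 was lower than slide 1 by 0.64 and 0.67 (limma adjusted p = 0.0201 and 0.0198 for the slide). Between the groups, the log2 difference of the first probe was 0.31 (SE 0.27, limma adjusted p = 0.866), and 0.10 with the slide as a block (SE 0.14, limma adjusted p = 0.997). That of the second was 0.36 (SE 0.28) and 0.14 with the block (SE 0.14).

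Among the PFKFB enzymes, Pfkfb4 was higher after heartbeat initiation, and Pfkfb1 and Pfkfb3 were not separated from their spread. Pfkfb4 is the isozyme first described in testis and is induced by hypoxia in many cells. Its signal was -4.29, -4.39 and -4.26 before heartbeat initiation and -3.52, -3.67 and -3.59 after it. The 3 arrays of each group lay close together, and the groups did not overlap. The means were -4.31 ± 0.066 and -3.59 ± 0.070 (SD, n = 3), a log2 difference of 0.72 (SE 0.13, 95% interval 0.41 to 1.03), or 1.65 fold (limma unadjusted p = 8.43e-04, adjusted p = 0.120, exact permutation p = 0.1). By unadjusted limma p, the probe ranked 135 among the 19299 tested. The log2 difference was 0.70 on slide 1 and 0.73 on slide 2, and in the block fit 0.71 (SE 0.13), which passed the threshold (limma adjusted p = 0.0465). Over all alternatives the adjusted p ranged from 0.0465 to 0.864. The signal of Pfkfb4 was dim, and with normexp background correction its log2 difference was 0.36 (limma adjusted p = 0.864). Its 2 spots differed by up to 0.50 on an array, more than those of Hk1 or Pfkp.

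Pfkfb1, the isozyme of liver and skeletal muscle, had 2 tested probes on the plus strand of the X chromosome, from 39885965 to 39886024 and from 39886042 to 39886101. The first gave -0.80, -0.68 and -0.83 before and -0.85, -0.89 and -0.82 after heartbeat initiation, a log2 difference of -0.083 (SE 0.13, 95% interval -0.39 to 0.22, limma adjusted p = 0.870). The second, made for an Ensembl transcript, gave -4.00, -4.09 and -4.43 before and -3.70, -4.20 and -4.34 after, a log2 difference of 0.092 (SE 0.22, limma adjusted p = 0.908). The probes thus differed in the sign of a small value, the groups overlapped in both, and the spots of the second differed by up to 0.94 on an array. Pfkfb3, the isozyme with the highest kinase over phosphatase activity, was measured by a probe with 1 spot (chromosome 17, plus strand, 78262283 to 78262342). Its signal was -4.88, -4.75 and -4.30 before and -5.03, -5.07 and -4.29 after, a log2 difference of -0.15 (SE 0.26, 95% interval -0.77 to 0.47, limma adjusted p = 0.880), and 0.032 with the slide as a block. The other Pfkfb3 probe (plus strand, 78261280 to 78261339) was well above background on 0 of 3 pre-heartbeat arrays and 1 of 3 post-heartbeat arrays. Pfkfb2, the isozyme of the adult heart, had 2 probes that were not tested. The probe shown above was well above background on 1 of 3 pre-heartbeat arrays and 0 of 3 post-heartbeat arrays, and the other (minus strand, 43625535 to 43625594) on 0 of 6.

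**Figure D2:**
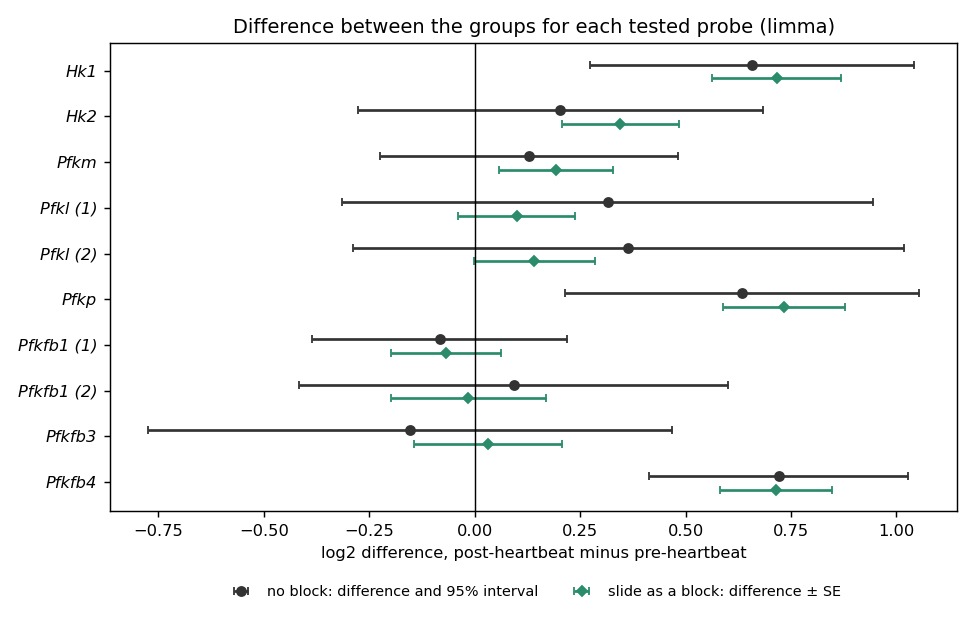
Log2 difference, post-heartbeat minus pre-heartbeat (x axis), of each tested probe (y axis). Black points are the limma differences with 95% intervals, and green diamonds are the differences with the slide as a block ± SE. The intervals of Hk1, Pfkp and Pfkfb4 lie above 0, at 0.27 to 1.04, 0.22 to 1.05 and 0.41 to 1.03, before adjustment for the number of probes tested.

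Because probes differ in how strongly they bind their transcript, the signals of different isozymes cannot be ranked. The ratio of a pair of isozymes on the same array can be compared between the groups. In it, the scaling of the array and any constant factor of a probe cancel. Background left in the signal does not cancel, and it weighs most on dim probes such as those of Pfkfb4 and Pfkfb3. All 7 pairs within a family with bright probes were compared, with the brightest probe of each gene, and the exact permutation p of a pair cannot go below 0.1. With 7 pairs, a p adjusted over them cannot pass 0.05 either, and the sizes are therefore given with their SE.

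Within the hexokinases, the ratio of Hk2 to Hk1 was lower after heartbeat initiation. The log2 ratio was -0.94, -0.59 and -0.80 before heartbeat initiation and -1.24, -1.39 and -1.06 after it, and the groups did not overlap. The difference was -0.45 (SE 0.14, exact permutation p = 0.1), so the ratio after heartbeat initiation was 0.730 of that before. It was -0.38 on slide 1, -0.36 on slide 2 and -0.37 with the slide as a block (SE 0.090).

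Within the phosphofructokinases, the ratio of the platelet to the muscle subunit was higher after heartbeat initiation. The log2 ratio of Pfkp to Pfkm was 2.60, 2.53 and 2.59 before and 2.94, 3.06 and 3.24 after heartbeat initiation. The 3 pre-heartbeat arrays lay close together, and all post-heartbeat arrays were higher. The difference was 0.51 (SE 0.090, exact permutation p = 0.1), or 1.42 fold, with 0.40 on slide 1, 0.68 on slide 2 and 0.54 with the slide as a block. The ratio of Pfkl to Pfkm (difference 0.19, SE 0.42, exact permutation p = 0.7) overlapped between the groups. So did that of Pfkp to Pfkl, which was 3.81, 4.76 and 4.55 before and 4.10, 4.58 and 5.39 after (difference 0.32, SE 0.47, exact permutation p = 0.5). Within slides, the ratio of Pfkp to Pfkl was higher after heartbeat initiation by 0.53 and 0.74, and with the slide as a block by 0.63 (SE 0.20). Without post-heartbeat replicate 3, which leaves no post-heartbeat array on slide 2, its difference was -0.030.

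Within the PFKFB enzymes, the ratio of Pfkfb4 to both other measured isozymes was higher after heartbeat initiation. The log2 ratio of Pfkfb4 to Pfkfb1 was -3.49, -3.71 and -3.43 before and -2.68, -2.78 and -2.77 after, a difference of 0.80 (SE 0.090, exact permutation p = 0.1), or 1.75 fold. It was 0.77 on slide 1 and 0.80 on slide 2, and 0.63 (SE 0.23) with the dimmer Pfkfb1 probe. The log2 ratio of Pfkfb4 to Pfkfb3 was 0.59, 0.36 and 0.04 before and 1.51, 1.40 and 0.70 after, a difference of 0.87 (SE 0.30, exact permutation p = 0.1), or 1.83 fold, with 0.87 on slide 1 and 0.50 on slide 2. The groups did not overlap in either ratio. The ratio of Pfkfb3 to Pfkfb1 differed by -0.070 (SE 0.31, exact permutation p = 0.5), and its groups overlapped. Over the alternatives, the differences of the 4 ratios whose groups did not overlap were -0.54 to -0.36 for Hk2 to Hk1 and 0.43 to 0.58 for Pfkp to Pfkm. They were 0.44 to 0.86 for Pfkfb4 to Pfkfb1 and 0.47 to 1.13 for Pfkfb4 to Pfkfb3. The low ends of these 2 ratios, 0.44 and 0.47, came from normexp background correction. Leaving out an array or taking the slide as a block cannot reverse the sign where groups do not overlap. Only normexp and quantile normalization could have reversed it, so a kept sign says little. These 4 pairs share Hk1, Pfkp or Pfkfb4, so they are not separate from the differences given above.

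**Figure D3:**
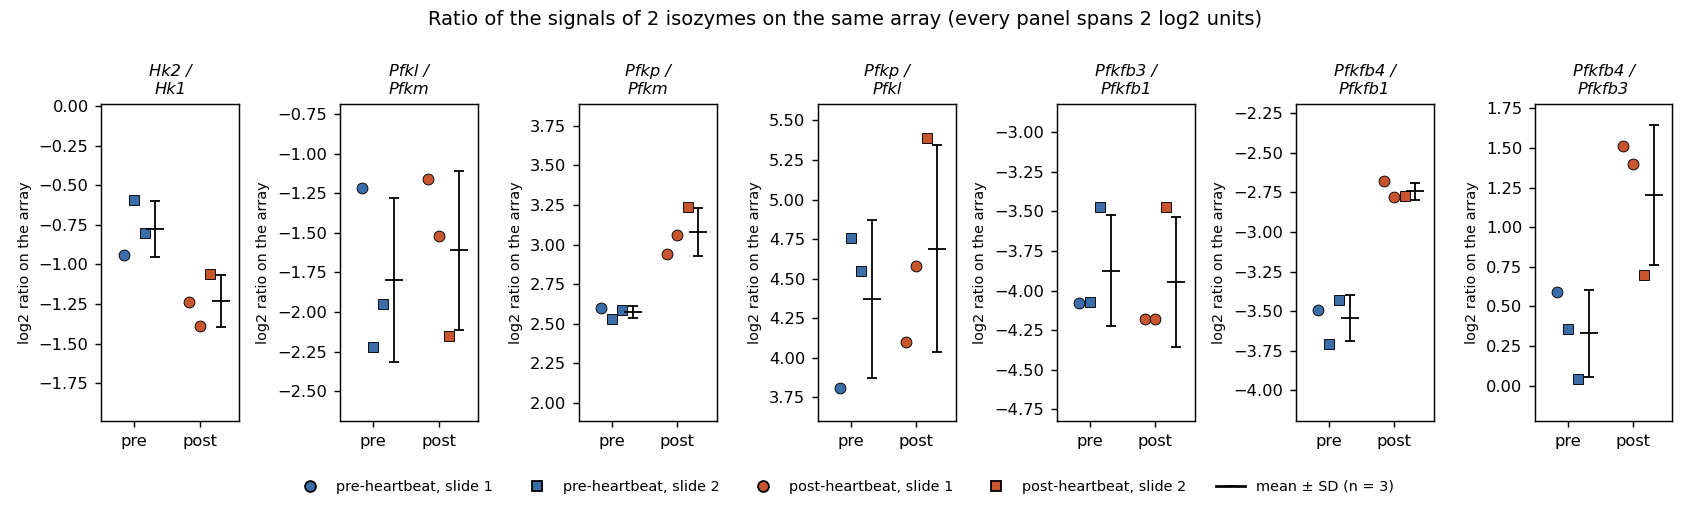
Log2 ratio of the signals of a pair of isozymes on the same array (y axis) in the pre- and post-heartbeat groups (x axis), with slide 1 as circles, slide 2 as squares and bars as mean ± SD (n = 3). The groups do not overlap for Hk2 over Hk1, Pfkp over Pfkm, Pfkfb4 over Pfkfb1 and Pfkfb4 over Pfkfb3, and the height of a ratio has no meaning across panels.

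The promoters of the 10 genes were searched for the core of the hypoxia response element, ACGTG or GCGTG on either strand, in the 250 bases before the start of transcription. Those of Hk1, Pfkp and Pfkfb4, the 3 tested members whose groups did not overlap, are shown from RefSeq (GRCr8) on the strand of the gene, with the core in capitals.
Hk1, chr20:30842073-30842322, minus strand: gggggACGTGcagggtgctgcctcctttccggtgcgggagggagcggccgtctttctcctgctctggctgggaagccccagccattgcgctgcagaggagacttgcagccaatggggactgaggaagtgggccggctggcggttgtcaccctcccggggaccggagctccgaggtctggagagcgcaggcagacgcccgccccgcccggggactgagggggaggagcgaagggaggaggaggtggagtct
Pfkp, chr17:68639563-68639812, plus strand: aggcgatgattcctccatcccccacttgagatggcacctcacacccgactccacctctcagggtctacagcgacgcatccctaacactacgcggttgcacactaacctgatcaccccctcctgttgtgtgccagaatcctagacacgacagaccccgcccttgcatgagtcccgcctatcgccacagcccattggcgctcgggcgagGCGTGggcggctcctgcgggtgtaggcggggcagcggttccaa
Pfkfb4, chr8:118525916-118526165, plus strand: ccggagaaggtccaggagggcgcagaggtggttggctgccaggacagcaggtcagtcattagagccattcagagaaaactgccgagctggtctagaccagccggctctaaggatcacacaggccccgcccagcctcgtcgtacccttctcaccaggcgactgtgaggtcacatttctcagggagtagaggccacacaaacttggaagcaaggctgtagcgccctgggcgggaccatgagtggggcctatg
The Hk1 window held ACGTG 245 bases before the start, and the window of its other annotated start held no core. In Pfkp, GCGTG lay 43 bases before the start, and the Pfkfb4 window held no core. Among the other members, the windows of Hk3, Pfkm, Pfkl and Pfkfb3 held a core, in Pfkfb3 as a palindrome that is read on both strands, and those of Hk2, Pfkfb1 and Pfkfb2 did not. In all, 6 of 11 windows of the 10 genes held a core, against 36.7% of 33469 promoters, and these letters are a description of the sequence.

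The rest of glycolysis, the enzymes from glucose phosphate isomerase to lactate dehydrogenase, was compared as a list of 16 genes, all tested. The median log2 difference of the 16 was 0.078 (9 higher, 7 lower), beside -0.022 over 12685 genes with a symbol, of which 20 were higher and 4 were lower at a limma adjusted p under 0.05. Of the 16, 1 passed this threshold, the muscle enolase Eno3 (1.27, limma adjusted p = 0.0364), and the methods' selection held 4, with Pgam2 (0.90), Ldhb (0.70) and Eno2 (0.69) beside Eno3. Over the 12685 genes, that selection held 295 as higher and 154 as lower. Pgam2 is the muscle phosphoglycerate mutase, Ldhb the lactate dehydrogenase of heart, and Eno2 the enolase of neurons. In the same families the isozymes found in most tissues, Pgam1 (-0.055), Ldha (-0.10) and Eno1 (-0.15), differed by less than their SE. Among enzymes that oppose hexokinase, phosphofructokinase and PFKFB, 2 of 5 were tested and 0 passed limma or the selection. The gluconeogenic Fbp1 had a log2 difference of -0.27 (limma adjusted p = 0.854) and the glucose phosphatase G6pc3 of 0.17 (limma adjusted p = 0.866). The groups did not overlap for either gene, and of the 12685 genes this held for 876 as lower and 800 as higher. Of 6 genes for other sugar kinases and the glucokinase regulator, 4 were tested and 0 passed (median -0.033).

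AMPK, the energy sensor known to phosphorylate Pfkfb2 in the heart, had 6 of 7 subunits tested, with a median of 0.081 and 0 past the limma threshold. Its gamma subunit Prkag2 was the 1 in the methods' selection, with signals of -2.01, -1.72 and -1.85 before and -1.23, -0.98 and -0.89 after heartbeat initiation. The groups did not overlap, and the log2 difference was 0.83 (SE 0.16, limma adjusted p = 0.145), with an adjusted p of 0.0262 in the limma fit with the slide block. The 3 voltage-dependent anion channels, to which hexokinases dock at mitochondria, had a median of -0.021 and 0 calls.

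**Figure D4:**
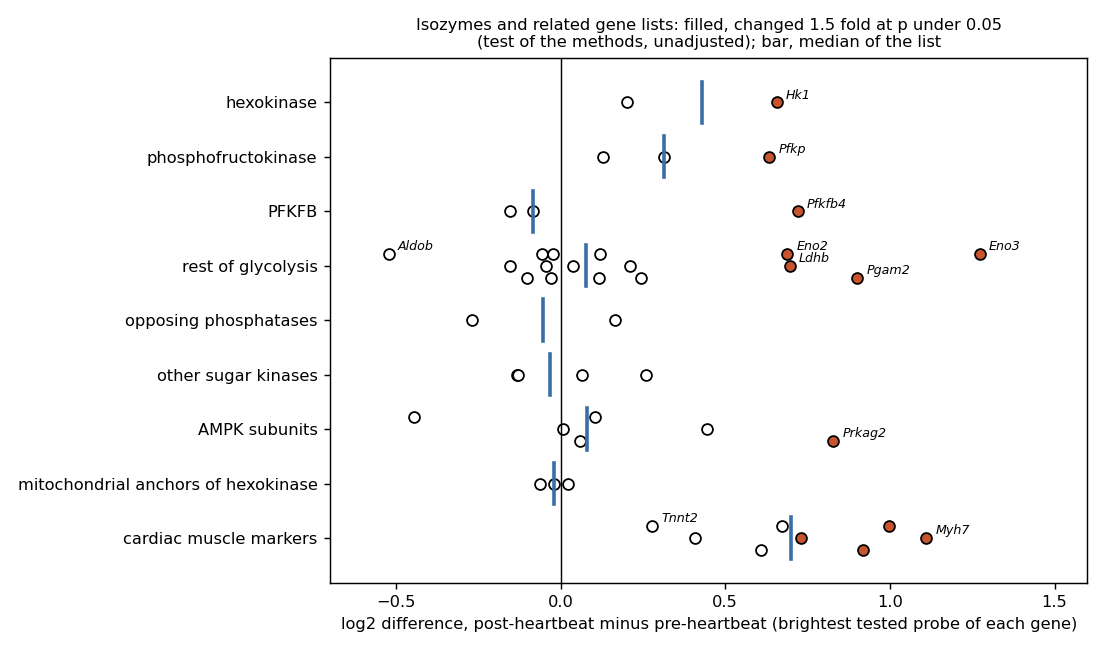
Log2 difference, post-heartbeat minus pre-heartbeat (x axis), of each tested gene in the isozyme families and related lists (y axis), with the brightest tested probe of each gene. Filled points are in the methods' selection and blue bars are the median of each list, which was 0.078 for the rest of glycolysis and 0.70 for cardiac muscle markers.

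Markers of other cells that the dissection could hold are given as the log2 of the summed signals of the listed genes on the array. Endothelial markers (6 of 6 tested) summed to 3.95 to 4.05 before and 3.42 to 3.64 after heartbeat initiation, and endoderm markers (5 of 6 tested) to 5.49 to 5.59 and 4.89 to 5.25. Neural ectoderm markers (2 of 5 tested) summed to 2.67 to 2.87 before and 1.28 to 1.56 after, and Otx2, a regulator of the anterior head, fell by 1.56 (limma adjusted p = 0.0199). The sums of these 3 lists were lower on every post-heartbeat array, and each was carried by 1 bright gene, Kdr (-0.55), Ttr (-0.58) and Otx2. Among the tested genes, 1 endothelial marker (Tie1, 0.50) and 1 endoderm marker (Afp, 0.24) had a higher mean after heartbeat initiation. The means of 5 endothelial, 4 endoderm and 2 neural ectoderm markers were lower. The median log2 difference of the endothelial list was -0.25, and -0.058 with the slide as a block. That of the endoderm list was -0.35, and -0.54 with the block. The sums of the paraxial mesoderm markers (3 of 5 tested) were higher after heartbeat initiation, at 4.41 to 4.57 before and 4.64 to 4.70 after. Of the blood markers, the erythroid regulator Gata1 and the leukocyte genes Ptprc and Spi1 were well above background on 0 arrays, whereas Klf1, Epor, Alas2, Hbz, Csf1r, Itgam, Cd68 and Lyz2 were on all 6. Erythroid markers (4 of 6 tested) summed to -2.29 to -1.72 before and -1.79 to -1.50 after, and of these Epor, the erythropoietin receptor, was in the methods' selection (1.26, limma adjusted p = 0.115). The log2 differences of the other 3 tested erythroid markers were -0.25 for Klf1, -0.61 for Alas2 and 0.72 for Hbz, with 0 of them called. Leukocyte markers (4 of 6 tested) summed to -0.96 to -0.82 before and -1.02 to -0.91 after. The part of these cells in the differences of the isozymes was not tested.

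For Hk1, Pfkp and Pfkfb4, which had the strongest difference of their family, the genes with the most similar pattern over the 6 arrays were listed by Pearson r, as a description. For Hk1 they were Trib3 (r = 0.996), Myh13 (0.994) and Ndrg4 (0.991), with log2 differences of 0.97, 1.15 and 0.69. For Pfkp they were Txlnb (r = 0.994), Schip1 (0.993) and Psd3 (0.993). For Pfkfb4 they were Hspb8 (r = 0.996), Lmod1 (0.994) and Fam83d (0.994), of which the small heat shock protein Hspb8 had a log2 difference of 1.10 (limma adjusted p = 0.0513). The 6 points of each pair share their arrays, groups and slides.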

How the data were processed

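Gene expression was measured on 6 rat arrays (Agilent, a single dye), 3 per group. The authors deposited the scanner output, in which Feature Extraction 10.7.3.1 gives a processed signal intensity per spot with the background subtracted, together with flags for spots that are outliers or well above background. The authors also deposited linear ratios, shifted to the 75th percentile and divided by a baseline value per probe, and their log2 differences from array to array equalled those in the processed signal, to 0.01 for 100% of probes, once 1 constant per array was removed.

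The log2 processed signal less the 75th percentile of each array over 58717 spots other than controls was used. Outlier spots (324 to 545 per array) were left out, spots of a probe were averaged, and a probe was tested if well above background on all 3 arrays of a group (19299 probes, 63.6%). Depth has no equivalent of a read count on arrays. Groups were compared in limma 3.58.1 (R 4.3.3, with version 1.17.8 of the data.table package) with Benjamini-Hochberg adjustment over all tested probes, and single values and within-array ratios by a two-sided exact permutation test, which has 10 splits. The script was tested on simulated data. Where a gene had several probes, the one with the highest mean signal was used in lists and ratios. Alternatives were the slide or the replicate number as a block, normexp (offset 50), quantile normalization, another 75th percentile, other filters, the authors' ratios, an intensity trend, the methods' test, the mean of probes, and leaving out each array. Genes named are all members, the genes of the lists past limma or the methods' selection, with a few others for contrast that were chosen after their values were seen (Fbp1, G6pc3, Pgam1, Ldha and Eno1), with the cell type markers given to show where a list is or is not detected (Gata1, Klf1, Alas2, Hbz, Ptprc, Spi1, Csf1r, Itgam, Cd68, Lyz2, Kdr, Tie1, Ttr and Afp, also chosen after their values were seen), and the 3 genes most similar to the strongest member of each family. The members and the lists were chosen with earlier results of these data known. Of the 14 probes, 13 were made for a RefSeq transcript held in the reference. Probe sequences and rn4 positions came from the array files, and promoters from RefSeq (GRCr8). No exon or UTR annotation of rn4 was used here, and the sequence of the Hk2 probe is not reported here.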

Additional observations from a re-analysis of the deposited data

How the results depend on the processing

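The 3 differences in the methods' selection (Hk1, Pfkp and Pfkfb4) and the 4 ratios whose groups did not overlap kept their direction under all alternatives run. For most alternatives this was fixed in advance. Where groups do not overlap, leaving out an array or taking the slide as a block cannot reverse a difference. The filters, the intensity trend and the replicate block leave its size as it is. Scaling of whole arrays cancels in the ratios, so only normexp and quantile normalization could have reversed those. With the slide as a block, 1 member probe was higher at a limma adjusted p under 0.05 (0 without it), that of Pfkfb4 (0.71). The methods' selection held 1 to 3 member probes when an array was left out. With normexp it held 2, and the log2 difference of Pfkfb4 (0.36) was then under the 1.5 fold of the selection. The selection's 4 genes of the rest of glycolysis compare with 1 past the limma threshold. Its 1 AMPK subunit, also called with the slide as a block (1), compares with 0.

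Values that reversed were all smaller than their SE without the block. With the slide as a block, the log2 difference was -0.015 for the dimmer Pfkfb1 probe and 0.032 for Pfkfb3, and the difference in log2 ratio was -0.093 for Pfkl to Pfkm and 0.099 for Pfkfb3 to Pfkfb1. Normexp gave -0.0098 for the dimmer Pfkfb1 probe, and the mean of both probes gave 0.0045 for Pfkfb1. With an array left out, differences ranged from -0.098 to 0.22 for the dimmer Pfkfb1 probe (-0.036 without pre-heartbeat replicate 3, -0.098 without post-heartbeat replicate 1) and from -0.41 to 0.018 for Pfkfb3 (0.018 without pre-heartbeat replicate 3). Differences in ratio then ranged from -0.037 to 0.48 for Pfkl to Pfkm, from -0.030 to 0.61 for Pfkp to Pfkl and from -0.31 to 0.13 for Pfkfb3 to Pfkfb1. The causes were not tested.

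Deviations from the group means correlated at 0.65, -0.28 and 0.49 between the arrays of replicate numbers 1, 2 and 3. Replicates 1 and 3 had both arrays on the same slide, and replicate 2 had them on different slides. These correlations therefore cannot show whether the replicate numbers pair the arrays. With the replicate block, 95 of all tested probes were higher and 49 were lower at a limma adjusted p under 0.05 and 0 member probes were called, with log2 differences of 0.72 for Pfkfb4 (limma adjusted p = 0.146), 0.66 for Hk1 and 0.63 for Pfkp. Over all tested probes, limma called 23 higher and 4 lower, against 223 and 89 with the slide as a block, 43 and 7 with normexp, 11 and 3 with quantile normalization, 10 and 3 with the authors' ratios, 38 and 7 with an intensity trend, 1 and 0 with no filter, and at most 1 and 1 without any single array. Dim probes (Pfkfb3, Pfkfb4 and the dimmer Pfkfb1 probe) limit what these arrays resolve.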
